A study of Arabidopsis thaliana with 18 samples.

Results

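The comparison of DF1-overexpressing root hairs (DF1ox) with wild-type root hairs (WT) addressed which transcripts change when the transcription factor DF1 is made in excess in this cell type. All arrays titled DF1ox (3) and WT (3) were taken, 6 of the 18 arrays of the series, and all 22746 probe sets of the Affymetrix ATH1 array other than its control probe sets were tested. Both groups were Arabidopsis thaliana seedling roots of the Columbia-0 background, 5 days after germination. The sample labels give MS medium for growth, while the methods of the study give a Johnson medium. Root tips were cut off and digested to protoplasts, and the green fluorescent ones were taken by flow sorting. In WT the fluorescent protein was a nuclear GFP under the promoter of the expansin gene EXPA7 (pEXPA7:NLS-GFP), which is active in root hair cells. In DF1ox the EXPA7 promoter drove a fusion of DF1 to GFP (pEXPA7:DF1-GFP), so the overproduced factor was itself the sorted signal, and the genotype of the line and its marker cannot be told apart. The sources used here do not say how many independent lines were sorted. The other 12 arrays, with 3 each of GTL1ox (pEXPA7:GTL1-GFP) and of the mutants gtl1, df1 and gtl1df1 carrying pEXPA7:NLS-GFP, entered the estimate of the spread and the description of levels.

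DF1 belongs to the trihelix or GT family, plant transcription factors that bind light-responsive GT elements through a domain of 3 helices. DF1 and its close relative GTL1 are known as repressors that end the growth of root hairs, single-celled outgrowths of the root epidermis that elongate at their tip. Tip growth needs loosening of the wall by expansins and xyloglucan enzymes, secretion, ion and sugar transport and signalling by peptides such as the RALFs, and it responds to auxin, ethylene and nutrient supply.

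Levels below are gcRMA log2 values, on which a difference of 1 is a 2-fold change, and a level compares arrays for 1 probe set but not probe sets with each other. The array medians lay between 3.0 and 3.22, and the lowest value was 2.22, with 27.9% of the values no more than 0.01 above it. A change is given as "at least" its size where no array of the lower group was more than 2-fold above that lowest value. WT replicate 3 stood apart. Across probe sets it correlated with the DF1ox arrays at 0.978 to 0.979 and with the other WT arrays at 0.987 to 0.990, while WT replicates 1 and 2 correlated with the DF1ox arrays at 0.9885 to 0.9914. The spiked controls BioB, BioC, BioD and Cre were all brighter in DF1ox than in WT, by 0.38 to 0.95, without overlap, and the mean signal of the 3' probe sets of the control transcripts over the 5' ones was 1.99 ± 0.20 (SD, n = 3) in WT and 1.96 ± 0.07 in DF1ox. Their part in the results below was not tested. Of the markers of other cells, all 3 stele markers with a probe set (PHV, LHW and OPS), the endodermal marker JKD, 3 of 5 photosynthesis genes and 4 of 7 genes of mitosis and DNA replication lay within 2-fold of the lowest value in all 6 arrays. The array medians, 3.0 to 3.22, reached no higher than about that level, so values this low are common among all probe sets. The share of all probe sets that lay so low in all 6 arrays is not given here. Counts near the lowest value, here and below, therefore do not show which cells were absent or set a list apart. The root cap marker scpl48, the 1 of its list with a probe set, was neither low nor unchanged, at 6.1 in WT and 8.28 in DF1ox, and was called higher (adjusted p = 0.0012). None of the stele, endodermal, photosynthesis and mitotic genes measured was called between the groups. Nor were TRY and ATMYC1, from a list of genes of the non-hair epidermis and of epidermal patterning, or any of 4 housekeeping genes. Of the root hair markers, EXPA7 and EXPA18 had a probe set that the annotation names with them, at 13.13 and 14.28 in WT. LRX1, PRP3, COW1 and RHD2 had none so named and were not analysed here. The study reports COW1 from its arrays. Throughout, a gene "with a probe set" is one that the annotation names, as 8730 of the 22746 probe sets had no gene in it.

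DF1 was at 7.23, 7.26 and 7.57 in the WT arrays and at 14.3, 14.09 and 14.24 in the DF1ox arrays. The DF1ox arrays were all far above the WT arrays and close to each other. The difference was 6.85 ± 0.32 (SE, adjusted p = 1.45e-07), 115-fold, the largest rise among probe sets with 1 gene. The probe set does not separate the transgene from the native transcript. EXPA7 itself, whose promoter drove both transgenes, was at 13.14, 13.14 and 13.1 in WT and at 13.15, 13.31 and 13.19 in DF1ox, and the groups did not differ past the threshold (difference 0.09 ± 0.06, adjusted p = 0.461).

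In all, 1828 of 22746 probe sets were called at an adjusted p under 0.05, a background of 8.04% against which the counts within gene lists are read. Of these, 878 were higher in DF1ox (3.86%) and 950 lower (4.18%), and 213 of the rises (0.936%) and 373 of the falls (1.64%) exceeded 2-fold. The 3 arrays of each group did not overlap for 19.6% of all probe sets, and for 1809 of the 1828 called. A lack of overlap in a called gene below therefore adds nothing to its call. The split depended on the scaling of the arrays, as quantile normalisation gave 1121 higher and 774 lower. In bulk RNA of sorted cells, fewer cells of a type and less RNA per cell cannot be told apart. These calls use the spread of all 18 arrays. Fitted to the 9 arrays of WT, GTL1ox and DF1ox alone, 667 were called (2.93%, with 352 or 1.55% higher and 315 or 1.38% lower), of which 632 were also called the same way with all arrays, and fitted to the 6 arrays compared, 78 were called (34 higher, 44 lower), 71 of them shared. Of the 166 genes named by the rules of the methods that were called with all arrays, 74 were still called with 9 arrays and 12 with 6. Those 12 were DF1, LEA4-5, AT1G24600, AT1G29270, AT3G02480, UGT76B1, XTH33, AT5G24570, AT4G02170, AT5G55560, AT2G45120 and HMT-1. Below, an adjusted p is from the fit to all 18 arrays, and where the call ended with the 9 arrays, with an array left out or under another scaling, that adjusted p follows it. Without WT replicate 3, 490 were called higher and 772 lower, and 475 of the 878 rises and 660 of the 950 falls remained called. It was the lowest of the WT arrays in 59.4% of the rises whose WT arrays differed, compared with 42.3% of all such probe sets.

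**Figure D1:**
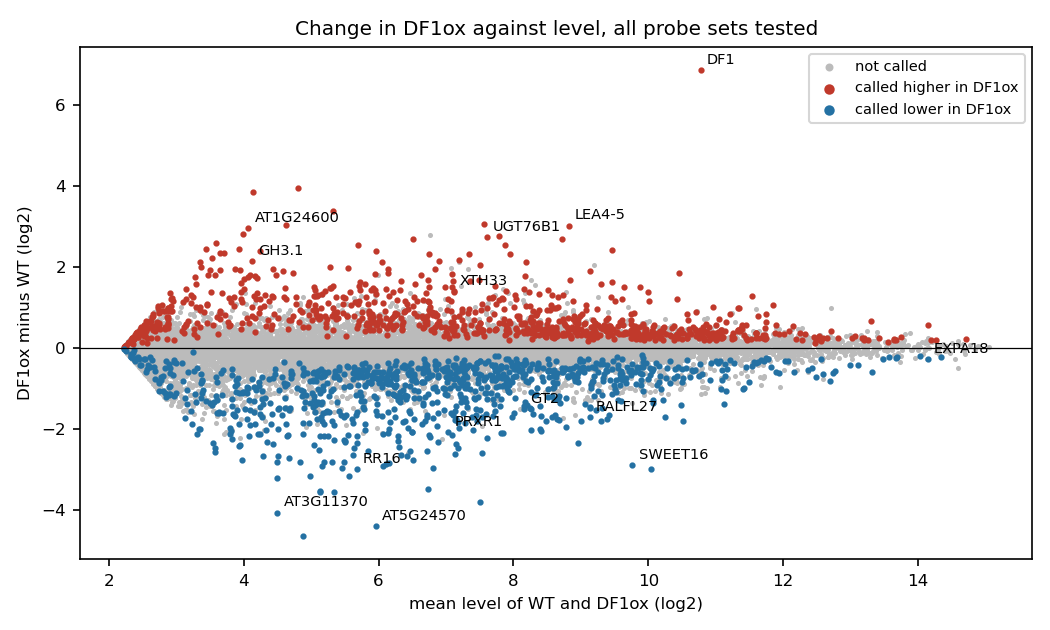
Difference DF1ox minus WT (log2, y axis) against the mean level of both groups (log2, x axis) for 22746 probe sets, with the 878 called higher in red, the 950 called lower in blue and the rest in grey. DF1 lies alone at the top, changes are bounded at the left by the lowest value of the arrays, and several far points are probe sets for which the annotation gives no gene.

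Among the trihelix factors, 2 of 4 genes with a probe set were called, DF1 and GT2. GT2, which binds GT elements and whose gene is the next protein-coding gene to DF1 on the chromosome, was at 8.88, 9.13 and 8.69 in WT and at 7.69, 7.42 and 7.1 in DF1ox. All DF1ox arrays were below all WT arrays, and GT2 fell by 1.5 ± 0.2 (SE, adjusted p = 0.000657). GT-1, the founding member that binds a light-responsive element, differed by 0.27 ± 0.13 (adjusted p = 0.277), and PTL, which restrains growth between sepals, lay at 2.22 and 2.22 in the groups.

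Of 45 genes of root hair growth in the list, 5 had a probe set named with them, and these 5 differed by 0.27 or less. The rest of the list was not analysed here. Only EXPA18, an expansin of growing hairs, was called among 5, at 14.34, 14.21 and 14.29 in WT and 13.96, 14.08 and 13.98 in DF1ox, and it fell by 0.27 ± 0.05 (adjusted p = 0.00634, but 0.0559 with the 9 arrays and 0.0675 with each array centred on its median). The DF1ox arrays lay just under the lowest WT array. FER, the receptor kinase that perceives RALF peptides, differed by 0.18 ± 0.06 (adjusted p = 0.0672), SCN1, which confines hair outgrowth to 1 site, by 0.13 ± 0.07 (0.353) and the xyloglucan enzyme XTH26 by 0.14 ± 0.19 (0.848). The median of the 5 was 0.13, compared with 0.0 over all probe sets. None of the 6 root hair bHLH genes of the list had a probe set named with it, so they were not analysed here.

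Wall enzymes of other families moved in both directions. Of 10 xyloglucan endotransglucosylases, which cut and rejoin the xyloglucan that ties cellulose fibres, 2 rose and none fell past the threshold. XTH33 was at 6.52, 6.35 and 6.39 in WT and at 7.79, 7.94 and 7.7 in DF1ox. The arrays of each group lay close together, and XTH33 rose by 1.39 ± 0.25 (adjusted p = 0.00458). XTH18 rose by 0.69 ± 0.17 (adjusted p = 0.0246, but 0.15 with the 9 arrays and 0.0772 to 0.0973 without DF1ox replicate 1 or 2 or WT replicate 2 or 3), while XTH21 differed by -1.53 ± 0.44 (adjusted p = 0.0521). Of 4 pectin-modifying enzymes 2 were higher in DF1ox. The pectin methylesterase ATPMEPCRB went from 5.04, 4.34 and 4.11 in WT to 5.85, 5.8 and 6.03 in DF1ox (1.4 ± 0.21, adjusted p = 0.00178), and PMEPCRF from near the lowest value to 3.23 (at least 1.0, adjusted p = 0.0226, but 0.204 with the 9 arrays and 0.063 to 0.0656 without DF1ox replicate 1 or WT replicate 3). Of 19 expansins, EXPA18 alone was called, and 11 lay near the lowest value in all 6 arrays. Of 7 class III peroxidases, which form or cleave wall cross-links with peroxide, PRXR1 and AT5G66390 were called lower. PRXR1 was at 7.51, 7.54 and 9.15 in WT and 5.6, 6.35 and 6.05 in DF1ox, with WT replicate 3 the highest array. It fell by 2.07 ± 0.44 (adjusted p = 0.0122, but 0.091 with the 9 arrays), and by 1.52 without WT replicate 3. AT5G66390 fell by 1.66 ± 0.45 (adjusted p = 0.039, but 0.223 with the 9 arrays and 0.0548 after quantile normalisation and 0.0711 to 0.154 without DF1ox replicate 1 or 2 or WT replicate 2 or 3).

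Among wall-related genes picked after their values were seen, TBL28, of a family that acetylates wall polysaccharides, was at 8.73, 8.42 and 8.41 in WT and 7.4, 6.99 and 6.88 in DF1ox. It fell by 1.43 ± 0.19 (adjusted p = 0.000808). EXO (EXORDIUM), a growth-promoting protein of the apoplast, fell by 2.03 ± 0.41 (adjusted p = 0.00907, but 0.0746 with the 9 arrays), the glucosidase BGLU15 by 0.82 ± 0.09 (adjusted p = 0.000153) and the endoglucanase GH9B13 by at least 1.13 (adjusted p = 0.0103, but 0.141 with the 9 arrays).

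In the auxin list, 9 of 36 genes had a probe set named with them. Of these 9, 3 rose and none fell past the threshold, and their median was 0.14. GH3.1, of the enzymes that conjugate auxin to amino acids, was at 3.1, 3.03 and 3.0 in WT and at 5.67, 4.84 and 5.08 in DF1ox. Every WT array was near the lowest value and every DF1ox array was above it, a rise of at least 2.15 (adjusted p = 0.00073). GH3.3, which acts in the same way, was at 6.81, 7.22 and 6.85 in WT and at 8.51, 8.66 and 8.34 in DF1ox and rose by 1.54 ± 0.27 (adjusted p = 0.00416). IAA30, an Aux/IAA repressor of auxin response, rose by 1.2 ± 0.27 (adjusted p = 0.0179, but 0.0528 to 0.0657 without DF1ox replicate 1 or 2 or WT replicate 3). Without WT replicate 3, 2 of the 3 remained called. Of the others HAT2, a homeobox gene induced by auxin, differed by -0.51 (adjusted p = 0.311), and the Aux/IAA genes IAA29 and IAA20 by 0.05 (0.531) and 0.14 (0.684). WES1, another GH3 gene, differed by 0.18, LBD16 by -0.05 and LBD29 by 0.0, and none of them was called.

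In the cytokinin list 4 of 51 genes had a probe set named with them. Of these 4, 1 was called, and 3 lay near the lowest value in all 6 arrays. RR16, a type-A response regulator that dampens cytokinin signalling, was at 7.88, 6.61 and 7.03 in WT and at 3.96, 4.69 and 3.88 in DF1ox. The highest DF1ox array was well below the lowest WT array, and RR16 fell by 2.99 ± 0.42 (adjusted p = 0.000924). Of 66 genes of abscisic acid and desiccation response, 6 had a probe set named with them, and 2 of these 6 rose. LEA4-5, a late embryogenesis abundant protein that protects cells from drying, was at 7.71, 7.24 and 6.99 in WT and 10.18, 10.17 and 10.64 in DF1ox, so that the DF1ox arrays were all above the WT arrays. It rose by 3.02 ± 0.34 (adjusted p = 0.000209), while LEA18 moved by at least 0.33 at the bottom of the scale (adjusted p = 0.0114, but 0.109 with the 9 arrays). The cold-induced COR47 and COR15A differed by 0.37 (adjusted p = 0.426) and 0.01 (0.866). Of 7 LEA proteins and dehydrins by family name, LEA4-5 and LEA18 were the 2 called.

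In the ethylene list EIN3, the central transcription factor of the pathway, was at 8.57, 8.83 and 8.67 in WT and 9.02, 8.91 and 9.08 in DF1ox and rose by 0.31 ± 0.07 (adjusted p = 0.0113, but 0.119 with the 9 arrays and 0.0504 without DF1ox replicate 3). ARL, a growth regulator induced by ethylene and brassinosteroid pathways, fell by at least 0.78 (adjusted p = 0.0443, but 0.0724 after quantile normalisation and 0.0529 with each array centred on its median and 0.0798 to 0.138 with any 1 of the 6 arrays left out), and RTE1, which activates the receptor ETR1, differed by -0.02 (adjusted p = 1). None of 3 jasmonate, wound and defence genes and not the 1 heat shock gene with a probe set was called. Outside the lists and picked after their values were seen, TINY (tny), a factor of the AP2/ERF family, was at 8.93, 8.65 and 8.35 in WT and 10.16, 10.29 and 10.36 in DF1ox. It rose by 1.63 ± 0.15 (adjusted p = 3.45e-05). BIM1, a bHLH partner in brassinosteroid response, rose by 0.37 ± 0.07 (adjusted p = 0.00641), and SLY1, the F-box protein of gibberellin response, fell by 0.7 ± 0.17 (adjusted p = 0.0226, but 0.0721 to 0.0925 without DF1ox replicate 1 or 3 or WT replicate 3).

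**Figure D2:**
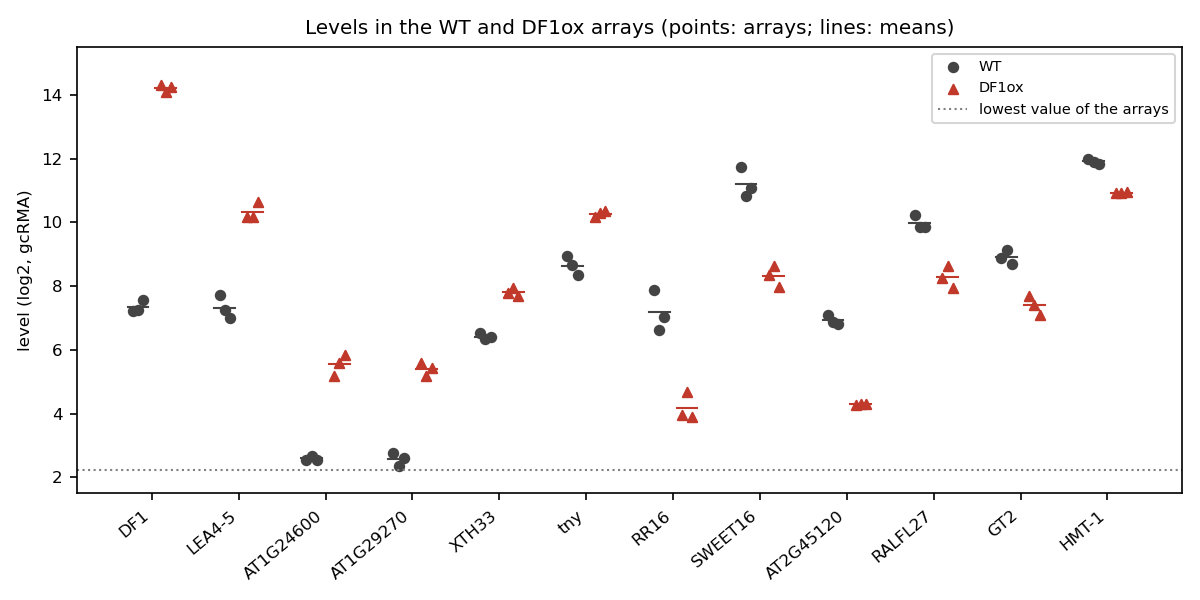
Levels (log2, y axis) of 12 genes (x axis) in the 3 WT arrays (grey circles) and the 3 DF1ox arrays (red triangles), with group means as lines and the lowest value of the arrays, 2.22, dotted. The 12 were picked from called genes, so the lack of overlap follows from that choice (1809 of the 1828 called probe sets do not overlap). AT1G24600 and AT1G29270 rose from near the lowest value.

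RALF-like peptides, secreted signals that change the pH and growth of the wall through FER-type receptors, had 10 members with a probe set, of which 2 fell and none rose past the threshold. RALFL27 was at 10.24, 9.85 and 9.84 in WT and at 8.26, 8.63 and 7.95 in DF1ox. No DF1ox array reached the WT arrays, and RALFL27 fell by 1.7 ± 0.23 (adjusted p = 0.000891). RALFL24 fell by 0.55 ± 0.14 (adjusted p = 0.0348, but 0.12 with the 9 arrays and 0.0585 with each array centred on its median and 0.0575 to 0.129 without DF1ox replicate 2 or 3 or WT replicate 1 or 3). RALFL34 and RALFL32 differed by -1.35 (adjusted p = 0.0751) and -0.86 (0.234), and the median of the 10 was -0.22. Of other signalling genes, picked after their values were seen, the peptide CLE27 rose by 1.61 ± 0.22 (adjusted p = 0.00073) from 3.02, 2.83 and 3.62 in WT to 4.97, 4.89 and 4.42 in DF1ox. The receptor-like kinase NCRK and the MAP kinase ATMPK13 rose from near the lowest value by at least 2.0 (adjusted p = 8.37e-05) and 1.14 (adjusted p = 3.57e-05).

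Among regulators of transcription, 3 of 6 genes named as bHLH factors were called. BHLH101, which acts in the response to iron shortage, was at 5.29, 4.29 and 4.4 in WT and at 3.12, 3.1 and 3.19 in DF1ox, where it came near the lowest value. It fell by at least 1.52 (adjusted p = 0.000587). Of its iron-responsive relatives, bHLH104 fell by 0.4 ± 0.09 (adjusted p = 0.0153, but 0.0884 with the 9 arrays and 0.0568 without DF1ox replicate 1) and bHLH115 rose by 0.28 ± 0.07 (adjusted p = 0.0312, but 0.125 with the 9 arrays and 0.0563 to 0.127 without DF1ox replicate 2 or 3 or WT replicate 3), while ILR3 differed by -0.02 (adjusted p = 1) and PYE, a regulator of iron homeostasis, by -0.34 (0.633). BHLH101 was the 1 of 4 members of the iron list called. WRKY47 rose by 0.4 ± 0.09 (adjusted p = 0.0153, but 0.114 with the 9 arrays and 0.0587 to 0.0601 without DF1ox replicate 1 or WT replicate 3) and was the 1 of 7 WRKY factors called. Picked after their values were seen, the MADS-box gene AGL21 fell by 1.22 ± 0.25 (adjusted p = 0.00909), and the light-signalling bZIP factor HYH rose by 0.79 ± 0.15 (adjusted p = 0.00578). UPB1, a bHLH factor that controls peroxidase genes in the root, rose by 0.7 ± 0.16 (adjusted p = 0.0163, but 0.0574 with the 9 arrays and 0.051 to 0.0519 without DF1ox replicate 1 or 2).

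SIM, an inhibitor of cyclin-dependent kinases that promotes the switch to endoreduplication, was at 9.94, 10.31 and 10.07 in WT and 9.28, 9.35 and 9.09 in DF1ox. It fell by 0.87 ± 0.22 (adjusted p = 0.0276, but 0.119 with the 9 arrays and 0.0541 to 0.0949 without DF1ox replicate 1, 2 or 3 or WT replicate 2 or 3), and BIN4, a subunit of the topoisomerase VI complex needed for endoreduplication, differed by -0.21 (adjusted p = 0.206). None of 7 genes of mitosis and DNA replication was called.

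SWEET16, a sugar carrier of the vacuole membrane, was at 11.73, 10.82 and 11.09 in WT and 8.35, 8.63 and 7.98 in DF1ox, and every DF1ox array was more than 2 below every WT array. It fell by 2.89 ± 0.27 (adjusted p = 4.44e-05) and was among the 15 largest falls. The other genes of this paragraph belong to no list and were picked after their values were seen. PLIM2b, which bundles actin, fell from 13.16, 12.98 and 13.02 to 12.6, 12.58 and 12.31 (0.56 ± 0.1, adjusted p = 0.00482), and the actin-binding protein NET4B fell by 1.46 ± 0.17 (adjusted p = 0.000236). KEU, a Sec1-type protein of vesicle fusion, and EXO84B, a subunit of the exocyst that tethers secretory vesicles, rose by 0.39 ± 0.07 (adjusted p = 0.0071) and 0.26 ± 0.04 (adjusted p = 0.00357). ATG8D, an autophagosome protein, rose by 0.63 ± 0.09 (adjusted p = 0.00126), and GAMMA-VPE, a protease of the vacuole, rose by 0.83 ± 0.11 (adjusted p = 0.000652).

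Of 50 UDP-glycosyltransferases, enzymes that add sugars to small molecules, 4 rose and 3 fell (7 of 50, beside the 8.04% of all probe sets), and 3 of the 7 remained called without WT replicate 3. UGT76B1, which glycosylates isoleucic acid and modulates salicylic acid defence, was at 6.26, 6.48 and 5.97 in WT and 9.23, 8.87 and 8.81 in DF1ox. The groups were wide apart, and it rose by 2.73 with a wide SE over all 18 arrays, 0.71 (adjusted p = 0.0324, but 0.0552 to 0.102 with any 1 of the 6 arrays left out). UGT74B1, an enzyme of glucosinolate synthesis, fell by 0.72 ± 0.15 (adjusted p = 0.0101). Of 24 cytochromes P450, 2 were higher, a share near that of all probe sets, and 19 lay near the lowest value in all 6 arrays, and of 13 glutathione transferases, 2 were higher, GSTU20 by 1.04 ± 0.27 (adjusted p = 0.0326, but 0.108 with the 9 arrays and 0.0533 to 0.132 without DF1ox replicate 1, 2 or 3 or WT replicate 2 or 3) and GSTL3 by 0.73 ± 0.18 (adjusted p = 0.0257, but 0.14 with the 9 arrays and 0.0534 to 0.099 without DF1ox replicate 1 or 2 or WT replicate 2 or 3). Picked after their values were seen, HMT-1, a homocysteine methyltransferase, was at 12.0, 11.9 and 11.83 in WT and 10.93, 10.93 and 10.94 in DF1ox. Its arrays were tight in both groups and it fell by 0.98 ± 0.06 (adjusted p = 9.39e-07). MMT, which makes S-methylmethionine, the methyl donor that such enzymes use, rose by 0.53 ± 0.09 (adjusted p = 0.00333). ACLA-2, a subunit of the citrate lyase that makes acetyl-CoA in the cytosol, fell by 1.05 ± 0.16 (adjusted p = 0.00153).

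**Figure D3:**
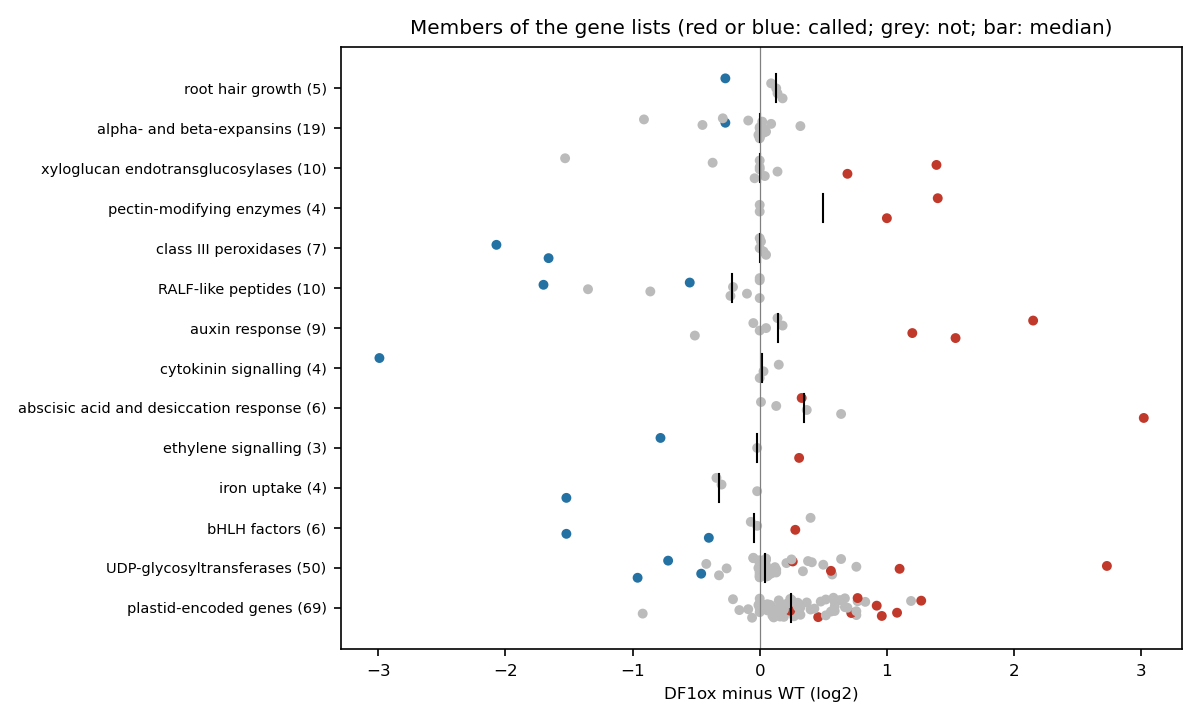
Difference DF1ox minus WT (log2, x axis) of each member with a probe set of 14 gene lists and families (y axis, number of members in parentheses), red where called higher, blue where called lower and grey where not called, with the median of each list as a bar. Most lists hold members on both sides of 0, and RR16, LEA4-5 and UGT76B1 stand apart from the rest of their lists.

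Organelle genes were grouped after the data were seen. Of 69 plastid-encoded genes 8 were called higher and 0 lower (beside 3.86% and 4.18% of all probe sets), 14 had all DF1ox arrays above all WT arrays (beside 9.02% of all probe sets), and the median was 0.25. The largest was petA, of the cytochrome b6f complex, at 8.75, 7.9 and 7.43 in WT and 9.07, 9.56 and 9.27 in DF1ox. It rose by 1.27 ± 0.29 (adjusted p = 0.0169, but 0.148 with the 9 arrays and 0.0639 to 0.0667 without DF1ox replicate 2 or WT replicate 3), none of the 8 was called with the 9 arrays, and 2 (psbC and rps15) remained called without WT replicate 3. Of 22 mitochondrial probe sets, several of them for nad1, that of nad2, a subunit of the respiratory complex I, was called higher. It rose by at least 2.45 (adjusted p = 0.00152), and the median of the probe sets was 0.0.

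The 15 largest rises and falls among genes whose arrays did not overlap were mostly genes for which the annotation holds only a locus. AT1G24600 was at 2.56, 2.68 and 2.55 in WT and 5.19, 5.6 and 5.84 in DF1ox, and rose from near the lowest value by at least 2.95 (adjusted p = 7.76e-08). AT1G29270 did likewise, at 2.77, 2.36 and 2.6 in WT and 5.58, 5.18 and 5.43 in DF1ox (at least 2.82, adjusted p = 3.65e-06). In both, the WT arrays shared the bottom of the scale. AT3G02480 rose by 2.76 ± 0.56 (adjusted p = 0.00918), AT1G76230 by 2.68 ± 0.31 (adjusted p = 0.000266) and AT5G59080 by 3.04 ± 0.5 (adjusted p = 0.00293, but 0.0622 with the 9 arrays). The others were AT1G64560 (2.39, adjusted p = 0.0057, but 0.0583 with the 9 arrays), AT1G73390 (2.11, adjusted p = 4.42e-05), AT1G66460 (2.01, adjusted p = 0.00012) and AT4G32080 (at least 2.22, adjusted p = 1.97e-05). scpl48, the serine carboxypeptidase-like root cap marker, was at 5.62, 6.06 and 6.62 in WT and 8.02, 8.16 and 8.66 in DF1ox. It rose by 2.18 ± 0.31 (adjusted p = 0.0012), and whether root cap cells took part in this was not tested.

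The largest fall was that of AT5G24570, from 8.87, 7.75 and 7.84 in WT to 3.73, 4.03 and 3.51 in DF1ox (4.4 ± 0.42, adjusted p = 5.26e-05). AT3G11370 went from 7.3, 6.09 and 6.2 to 2.59, 2.22 and 2.59 and fell by at least 4.06 (adjusted p = 3.45e-05), near the lowest value in all DF1ox arrays. AT2G45120 was at 7.11, 6.89 and 6.82 in WT and 4.27, 4.31 and 4.31 in DF1ox and had the smallest adjusted p of the leading falls (2.64 ± 0.11, adjusted p = 3.39e-08). The leading genes were picked as called and not overlapping, so the separation of the groups in these 3, and in the leading rises, follows from that choice. AT1G61080 fell by 3.53, AT5G43590 by 2.96, AT4G11210 by 2.85, AT2G29000 by 2.82, AT4G02170 by 2.7 and AT5G55560 by 2.65 (adjusted p 1.49e-06 to 0.00136).

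In 5 of the 15 largest falls WT replicate 3 was the highest WT array, and in 4 of the 15 it was the lowest. Among probe sets whose WT arrays differed, it was the highest in 29.2% of all and in 36% of those called lower. The 5 are thus near the share of all probe sets. In 4 of these 5 it carried a large share of the difference. AT4G10450 was at 6.36, 5.07 and 8.44 in WT and 3.4, 3.95 and 3.79 in DF1ox. It fell by 2.91 ± 0.67 (adjusted p = 0.018, but 0.131 with the 9 arrays and 0.0577 without DF1ox replicate 1), and by 2.01 without WT replicate 3 (adjusted p = 0.0391). AT4G12600 was at 7.19, 6.2 and 9.34 in WT and 4.18, 5.31 and 4.72 in DF1ox and fell by 2.84 (adjusted p = 0.015, but 0.135 with the 9 arrays and 0.0548 without DF1ox replicate 1), and by 1.96 without that array. AT1G25260 fell by 2.81 (adjusted p = 0.00536, but 0.0963 with the 9 arrays), or 2.05 without it, and AT1G52930 by at least 2.66 (adjusted p = 0.0164, but 0.157 with the 9 arrays and 0.0538 without DF1ox replicate 3), or 1.77 without it. WT replicate 3 was the lowest WT array in 10 of the 15 largest rises, beside 42.3% of all probe sets and 59.4% of the called rises whose WT arrays differed. Of the 15 largest rises 14, and of the 15 largest falls all 15, were called without WT replicate 3.

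**Figure D4:**
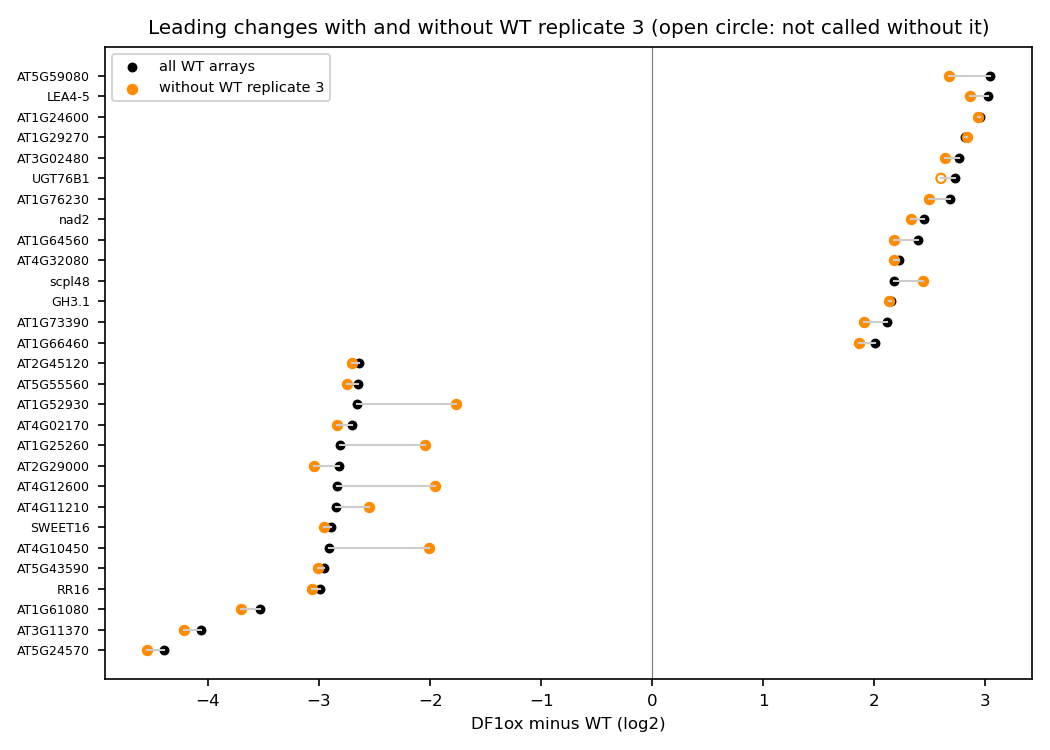
Difference DF1ox minus WT (log2, x axis) of the 15 largest falls and the 15 largest rises except DF1 (y axis), with all WT arrays (black) and without WT replicate 3 (orange, open where not called without it). AT4G10450, AT4G12600, AT1G25260 and AT1G52930 moved most, and UGT76B1 is the open circle.

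Whether DF1ox differed from GTL1ox, the other overexpression line, was tested directly between their arrays, and 4667 probe sets (20.5%) were called. Several of the rises of DF1ox were not at that level in GTL1ox. XTH33 was at 5.56 ± 0.55 (SD, n = 3) in GTL1ox, 2.25 ± 0.25 (SE) lower than in DF1ox (adjusted p = 2.95e-05). TINY was at 8.52 ± 0.06 in GTL1ox and 1.76 ± 0.15 lower than in DF1ox (2.36e-06), near its WT mean of 8.64. AT1G24600 lay near the lowest value in GTL1ox, at 2.64, at least 2.9 under DF1ox (1.07e-08), and so did NCRK, at 2.23 (at least 2.13, 7.89e-06). The difference of scpl48 was 2.51 ± 0.31 (8.09e-05) and that of CLE27 at least 1.87 (4.29e-05). In the other direction GH3.3 was 4.21 ± 0.27 higher in GTL1ox than in DF1ox (2.74e-07) and GH3.1 2.69 ± 0.29 higher (2.3e-05). Among falls, PLIM2b was 1.99 ± 0.1 lower in GTL1ox (3.43e-08) and TBL28 2.04 ± 0.19 lower (8.34e-06). GT2 differed between the lines by 0.88 ± 0.2 (0.00604), SWEET16 by 0.78 ± 0.27 (0.0605) and AT5G24570 by 0.06 ± 0.42 (1).

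The mutant arrays stood far from the overexpression and WT arrays in the spiked controls (BioB at 2.69 ± 0.06 in WT and at 7.82, 8.26 and 7.47 in gtl1, df1 and gtl1df1), and their levels are given without a test. DF1 was at 8.57 ± 0.23 (SD, n = 3) in gtl1, 3.45 ± 0.25 in df1, 4.15 ± 0.82 in gtl1df1 and 5.25 ± 0.37 in GTL1ox. GT2 lay between 9.38 and 9.63 in the mutants, above all its means in WT and the overexpression lines. LEA4-5 had a mean of 9.44 ± 0.27 in df1 and of 7.05 ± 0.61 in gtl1, AT3G02480 of 9.38 ± 0.79 and 6.27 ± 1.02, and UGT76B1 of 9.27 ± 1.47 and 6.26 ± 0.84. In gtl1df1, which also lacks DF1, the means of LEA4-5, AT3G02480 and UGT76B1 were 6.15 ± 0.35, 6.46 ± 0.89 and 6.67 ± 1.22. The means of these 3 genes were thus higher in df1 than in gtl1 and in gtl1df1. RR16 was at 6.94 ± 0.57 in gtl1 and lower in df1, at 5.25 ± 0.62, and in gtl1df1, at 4.99 ± 0.21.

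**Figure D5:**
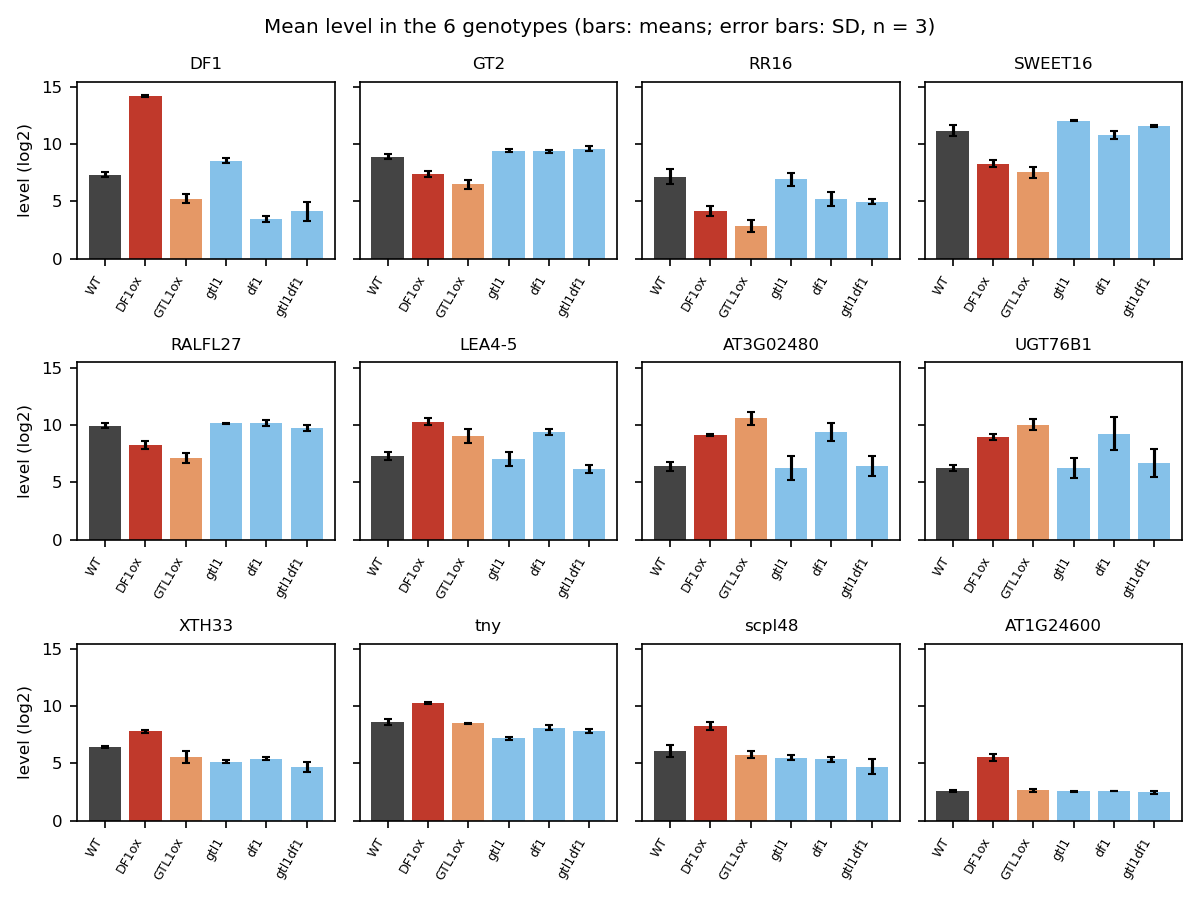
Mean level (log2, y axis, starting at 0) with SD (error bars, n = 3) of 12 genes in WT, DF1ox, GTL1ox and the mutants gtl1, df1 and gtl1df1 (x axis), the mutants in blue. XTH33, tny, scpl48 and AT1G24600 were highest in DF1ox, and among the mutants LEA4-5, AT3G02480 and UGT76B1 had their highest mean in df1.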

How the data were processed

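RNA of root hair protoplasts collected by fluorescence-activated cell sorting was hybridised to Affymetrix ATH1 arrays, with 3 replicates in each of 6 genotypes, which the methods of the study call biological replicates. The p-values reflect no more than the spread among these samples. The deposited values are log2 expression after gcRMA (GCRMA in the submitters' processing notes), run by the authors on all arrays, and were used as deposited. 6 arrays of the series were labelled with a 2-cycle protocol and the sources used here do not say which. No detection calls were used and no dim probe set was removed. 64 control probe sets were left out of the tests, which left 22746.

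Gene names of probe sets came from the platform annotation, with symbols from the gene table of assembly TAIR10.1. 13513 probe sets had 1 gene, 503 several and 8730 none. A gene with no probe set named with it was not analysed here, so most lists were covered only in part. Named probe sets covered 4 of 8 trihelix, 3 of 27 ethylene, 1 of 24 heat shock and 4 of 33 iron genes. They covered 3 of 47 jasmonate, wound and defence, 7 of 49 mitosis and replication and 2 of 27 endoreduplication genes. For stele it was 3 of 32, for root cap 1 of 10, for photosynthesis 5 of 41 and for housekeeping 4 of 24.

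A linear model with a mean for each genotype was fitted to the 18 arrays (limma 3.58.1, R 4.3.3) with moderated variances, two-sided, with Benjamini-Hochberg adjustment over all probe sets, and called at an adjusted p under 0.05. SE is the moderated standard error. The script was tested on simulated data. Named genes were DF1 and EXPA7, the 15 largest rises and 15 largest falls among probe sets with 1 gene, called and not overlapping, up to 6 members of each gene list or family, and, as said beside them, genes picked after their values were seen. The members, lists and tests were chosen with earlier results of these data known. The families of extensins, aquaporins and ribosomal proteins were dropped because their name patterns also matched genes of another kind. Alternatives were fits of 6 and 9 arrays, quantile normalisation, median centring, a filter on mean level, an eBayes trend, the replicate number as a block and each array left out. Plotting used matplotlib 3.10.9 and pandas 2.3.3 under Python 3.11.15.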

Additional observations from a re-analysis of the deposited data

Results flagged for a closer look

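The hybridisation controls, which were outside the comparisons, were brighter in DF1ox than in WT with no overlap between the arrays, by 0.38 for BioB, 0.87 for BioC, 0.95 for BioD and 0.73 for Cre on the log2 scale. In GTL1ox they averaged 2.71, 6.97, 9.86 and 12.55, compared with 2.69, 7.20, 10.00 and 12.55 in WT. Their part in the differences between DF1ox and WT was not tested.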

How the results depend on the processing

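The count of probe sets that differed between DF1ox and WT depended on which arrays gave the spread. With all 18 arrays it was 1828 (878 higher, 950 lower). It was 667 (352 higher, 315 lower) with the 9 arrays of WT, GTL1ox and DF1ox, and 78 (34 higher, 44 lower) with the 6 arrays compared, where 2952 had an unadjusted p under 0.05. The cause was not tested. Leaving out each of the 6 arrays gave 1255 to 2388 in all, 490 to 1047 higher and 574 to 1341 lower. Rises were fewest without WT replicate 3 (490), and falls without DF1ox replicates 2 and 3 (592 and 574). Quantile normalisation gave 1121 higher and 774 lower, median centring 1068 and 909, the filter on mean level 987 and 1388, and the eBayes trend 908 and 991. Same-number arrays of DF1ox and WT deviated with correlations of -0.013, -0.113 and 0.130. These show no pairing by number, but 3 values from groups of 3 arrays cannot exclude it. The fit with the replicate block called 1742 (825 higher, 917 lower), of which 1618 were also called the same way in the main fit. For DF1ox against GTL1ox the count, 4667 with all arrays, lay between 3167 (6 arrays) and 4715 (eBayes trend) under the alternatives, and was 4534 with the replicate block. No named gene changed direction in a call under any of these. The promoter motif search was not run, as no promoter sequence was at hand. Changes to or from the lowest array value are limited by the signal over background.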

Other observations

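The genes of the next sentences belong to no list and were picked after their values were seen. The E2 enzyme UBC22 rose by 0.45 ± 0.07 (SE), with an adjusted p of 0.00282 in limma. SQN, a cyclophilin of the immunophilin chaperones, fell by 1.37 (adjusted p = 0.00533, but 0.0818 with the 9 arrays). HON4, a linker-histone-type protein, fell by 1.76 (adjusted p = 0.0014), and SECE1, a subunit of a plastid protein translocase, by 2.17 (adjusted p = 0.000163). Of the called named genes, 5 pairs were neighbouring protein-coding genes. How many such pairs the choice of named genes would give was not tested. DF1 and GT2, CYP71B28 and CYP71B29, and rps18 and rpl20 each belong to the same list or family. In HMT-1 and CLE27 the first fell by 0.98 and the other rose by 1.61, and in DF1 and GT2 the first rose by 6.85 and the other fell by 1.5. Both members were higher in CYP71B28 and CYP71B29 (at least 0.14, and 0.87), in the plastid genes rps18 and rpl20 (0.72 and 1.08) and in CRK and WRKY47 (0.39 and 0.4), 6 genes whose calls all ended with the 9 arrays.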
